A study of Mus musculus with 2 samples.

Results

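The sarcomere is the contractile unit of striated muscle, and its parts were followed here as 42 genes, matched by symbol among the 27998 genes of the deposited count tables. The list covered the actins, myosin heavy and light chains, troponins, tropomyosins, titin and nebulin, proteins of the Z-disc and M-band, myosin-binding proteins, and capping or assembly factors. The list follows protein roles, and no member was left out for its level. In the genome (build mm10, coordinates of GENCODE M21) several members lie near one another. Myh3 (chr11:67078300-67102291), Myh2 (chr11:67171027-67197517) and Myh8 (chr11:67277124-67308634) lie in that order on chromosome 11, and Myh6 and Myh7 lie on chromosome 14. Tnni1 (chr1:135779434-135810989) lies near Tnnt2 (chr1:135836354-135852260), and Tnni2 (chr7:142441808-142444410) near Tnnt3 (chr7:142498836-142516009).

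In a sarcomere, thin filaments of actin slide along thick filaments of myosin. Troponin and tropomyosin on the thin filament give the slide its calcium switch, titin spans from Z-disc to M-band, and nebulin runs along the thin filament. Most of these proteins exist as isoforms encoded by separate genes, and embryonic skeletal muscle is known to use several that later mark heart, slow fibres or fast fibres.

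The cells came from inter-limb somites, the blocks of trunk mesoderm that give rise to axial muscle, of wild type C57BL/6 mouse embryos at embryonic day (E) 9.5 and E11.5. Somites of 3 embryos were pooled per stage, and 1 droplet library was made from each pool, so no replicate exists for either stage and nothing below carries a test of stage. The E9.5 library held 10121 barcodes with 149368952 UMIs (unique molecular identifiers, each marking 1 captured transcript), and the E11.5 library 10167 barcodes with 136655763 UMIs. Cells with at least 200 and under 6500 detected genes and under 15% mitochondrial UMIs were kept, 9851 at E9.5 with a median of 12462 UMIs and 9595 at E11.5 with a median of 12479. The libraries shared 30 barcode sequences, of which 3 fell in the E11.5 Acta1 gate defined next.

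Cells were sorted into 4 gates that follow the myogenic programme. The Pax7 gate held cells with a UMI of Pax7, none of Myod1 or Myog and at least 1 somite marker. These cells also had no UMI of the neural and crest genes Sox1, Sox2, Sox3, Sox10, Sox21, Foxd3, Olig3, Wnt1 and Wnt3a. Other neural genes, such as markers of neurons, were not screened. The Myod1 gate needed at least 2 UMIs of Myod1, the determination factor, and none of Myog, and the Myog gate at least 2 UMIs of Myog, the differentiation factor. Cells with at least 5 Acta1 UMIs per 10000 formed the Acta1 gate, which took precedence over the others. At E11.5 the gates held 232, 151, 444 and 217 cells in that order, and at E9.5 they held 103, 0, 29 and 10. In the Pax7 gate 149 of 232 cells at E11.5 and 48 of 103 at E9.5 had a UMI of Myf5 or Myf6. That gate may therefore hold somite cells other than muscle progenitors. Levels are given as UPM, the UMIs of a gene per 1000000 UMIs of all cells in a gate, with 95% intervals that cover counting error only and not the spread between embryos. UPM is not divided by transcript length, since the droplet method tags each transcript once.

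The labelled cell type was checked against its markers. In the E11.5 Acta1 gate 208 of 217 cells had a UMI of Myod1, Myog, Myf5 or Myf6, the 9 without one all had under 5000 UMIs, and the muscle markers summed to 3714 UPM. In the E9.5 Acta1 gate 9 of 10 cells had such a UMI, and the cell without one had 1421 UMIs and entered on 1 Acta1 UMI. Heart markers summed to 30.9 UPM in the E11.5 Acta1 gate, with Nkx2-5, Nppa and Tbx20 at 0, against 7.24 UPM in the E11.5 Myog gate. In the E11.5 Acta1 gate 52 of these UMIs were Myh6, 50 Myl7 and 3 Tnni3. At E9.5 the heart list summed to 123 UPM in the Acta1 gate, all of it Myl7, with the other 5 genes at 0. In that gate muscle markers summed to 1759 UPM and smooth muscle markers to 1777, of which Tagln gave 1765. At E11.5 the smooth muscle list summed to 1107 UPM in the Acta1 gate. Neuron markers in the E9.5 Acta1 gate summed to 293 UPM, all of it Tubb3, against 57.4 in E9.5 neural cells. Neural crest markers there gave 35.2 UPM on 6 UMIs. In the E11.5 Pax7 gate the neuron markers Elavl3, Tubb3 and Stmn2 summed to 62.4 UPM on 251 UMIs. At E11.5 they summed to 16.7 UPM in the Myod1 gate, 44.5 in the Myog gate, 50.0 in the Acta1 gate and 354 in neural cells. The source of these UMIs was not tested. A total of 12 of the 217 cells entered the Acta1 gate on 2 Acta1 UMIs or fewer, all of them with under 5000 UMIs.

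To show what sequence lies before the genes on which the results turn, the bases before the RefSeq start site are printed for the gene that defines the last gate, the leading actin, the most abundant member and the leading heavy chain (build GRCm38.p6, 5′ to 3′ on the strand of the gene, exon bases of the GENCODE models left out). Capitals mark matches on either strand to CAGCTG (an E-box of the kind bound by Myod1 and Myog), CATTCC (the core of the MCAT element bound by TEAD factors), TATAAA or the CArG box bound by serum response factor.
Acta1, chr8:123894776-123895025, minus strand: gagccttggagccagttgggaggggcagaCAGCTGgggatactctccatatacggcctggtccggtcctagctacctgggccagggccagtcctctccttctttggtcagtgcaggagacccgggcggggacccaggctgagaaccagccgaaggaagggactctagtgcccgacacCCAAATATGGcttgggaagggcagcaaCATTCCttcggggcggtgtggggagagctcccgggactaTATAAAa
Actc1, chr2:114052888-114053125, minus strand: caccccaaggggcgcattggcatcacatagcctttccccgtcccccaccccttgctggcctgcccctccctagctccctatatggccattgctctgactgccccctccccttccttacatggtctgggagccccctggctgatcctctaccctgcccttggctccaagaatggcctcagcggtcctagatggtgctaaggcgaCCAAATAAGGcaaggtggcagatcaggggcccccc
Mylpf, chr7:127211358-127211607, plus strand: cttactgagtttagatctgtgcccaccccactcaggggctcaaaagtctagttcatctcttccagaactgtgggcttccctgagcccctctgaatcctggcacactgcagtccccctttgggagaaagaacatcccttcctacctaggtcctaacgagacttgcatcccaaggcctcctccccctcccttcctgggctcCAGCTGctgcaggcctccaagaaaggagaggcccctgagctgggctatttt
Myh3, chr11:67078050-67078299, plus strand: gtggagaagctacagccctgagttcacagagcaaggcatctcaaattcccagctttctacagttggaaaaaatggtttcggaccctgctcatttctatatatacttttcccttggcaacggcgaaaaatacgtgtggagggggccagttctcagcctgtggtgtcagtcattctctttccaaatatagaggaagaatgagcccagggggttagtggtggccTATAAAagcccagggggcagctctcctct

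Of the 5 motifs searched, on both strands and with overlap allowed, Acta1 held all but the MEF2 site within 250 bases of its start. The CArG box lay at 73 to 64 bases before that start, CATTCC at 46 to 41 and TATAAA at 7 to 2. The GENCODE model of Acta1 begins downstream of the RefSeq start, at chr8:123894751, so these distances depend on the start used. The windows printed for Actc1 and Mylpf lie inside their GENCODE genes (chr2:114047282-114053548 and chr7:127208890-127214298), which begin upstream. All distances given here are from the RefSeq start. Actc1 held a CArG box at 47 to 38 bases before the start and none of the other 4 motifs. Mylpf held CAGCTG at 51 to 46 bases, and Myh3 held only TATAAA, at 29 to 24 bases. The set of RefSeq promoters used here held 43 for 34 of the 42 members, and 8 (Actn3, Lmod3, Myom2, Neb, Tcap, Tnni2, Tnnt3 and Xirp1) had no entry in that set. A CArG box stood in 16.3% of the member promoters and in 1.47% of all 32851 promoters, CAGCTG in 32.6% and 13%, CATTCC in 27.9% and 12.6%, TATAAA in 18.6% and 12.4%, and a MEF2 site in 6.98% and 2.92%. The 6 members with a CArG box were Acta1, Actc1, Ldb3, Myl3, Myom1 and Nebl, and those with a MEF2 site Myh8, Myoz2 and Ttn. These matches describe letters in a window and not bound sites.

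Sarcomere transcripts made up a small share of the messages of cells in the Pax7 gate and a large share of those of cells in the Acta1 gate. At E11.5 the 42 members took 0.297% of UMIs in the Pax7 gate, 0.270% in the Myod1 gate, 1.02% in the Myog gate (1.01 to 1.03) and 8.81% in the Acta1 gate (8.78 to 8.84). Neural cells of the same library, taken as cells outside the gates with UMIs of both Sox2 and Sox3, gave 0.0463%. Tpm3 and Tpm1 had medians of 2.12 and 0.667 UMIs per 10000 in them. The neural share is therefore not a background of absent transcripts only. In single cells of the Acta1 gate the share ran from 0.218% to 18.8% with a median of 9.43%, and in the Myog gate from 0.0374% to 8.08% with a median of 0.610%. The 61 cells of the Acta1 gate with under 5000 UMIs had a member share of 10.5% and the 156 deeper cells 8.77%. At E9.5 the shares were 0.0570% in the Pax7 gate, 0.309% in the Myog gate and 2.66% (2.58 to 2.74) in the 10 cells of the Acta1 gate. Of the 10 E9.5 cells, 4 had under 5000 UMIs. A single E9.5 cell of 40864 UMIs carried 47.9% of the member UMIs of that gate, and the remaining 9 cells gave 1.82%. Acta1 itself is 1 of the 42, and the gate was cut on it, so the height of the last step is partly set by the gate.

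**Figure D1:**
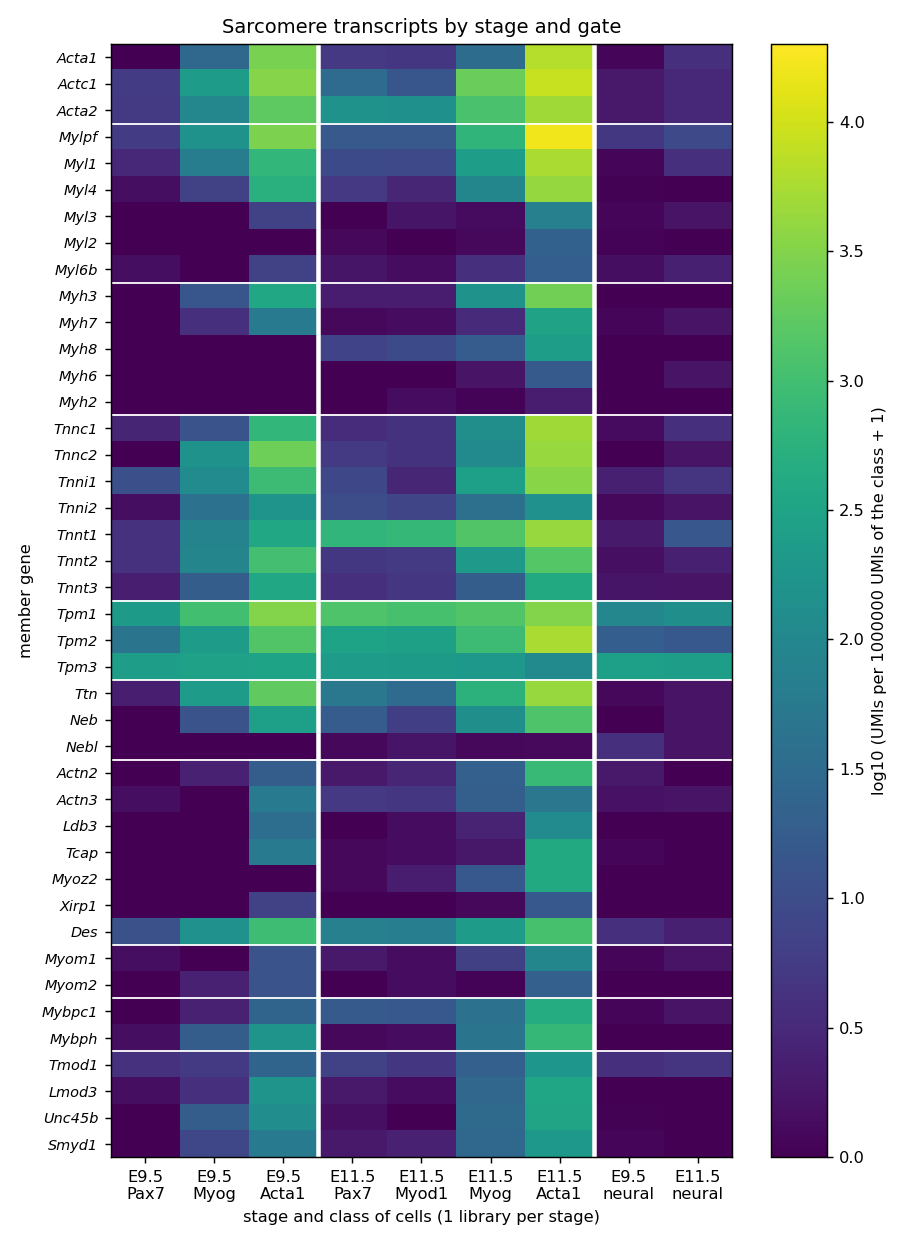
Level of each of the 42 members (rows, grouped by protein role) in each class of cells (columns, with stage above and gate below), as log10 of UMIs per 1000000 plus 1. The E11.5 Acta1 column is the brightest, Tnnt1, Tpm1, Tpm2 and Tpm3 are already visible in the E11.5 Pax7 and Myod1 columns, and Tpm3 is between 112.7 and 310.8 UMIs per 1000000 in every column, lowest in the E11.5 Acta1 gate.

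Between the Pax7 and Myod1 gates at E11.5 few members differed past 2-fold. None of the 42 was higher by 2-fold or more in the Myod1 gate, 4 were lower, 18 lay between, and 20 had only 0 to 19 UMIs in the gates together. Over all genes with 20 UMIs or more, 0.593% were higher by 2-fold and 2.51% lower. The 4 lower members were Actc1, from 30.6 to 13.0 UPM, Tnni1, from 7.70 to 1.85, Neb, from 16.9 to 5.18, and Myl4, from 4.23 to 1.85. The interval of Myl4 covered 0 on the log2 scale (-1.19, -2.98 to 0.31), and none of the 4 had its whole interval below a 2-fold difference.

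The Myog gate differed from the Myod1 gate in most members. Of the 42, 30 were higher by 2-fold or more, none was lower, 3 lay between (Tnnt1, Tpm1 and Tpm3) and 9 had under 20 UMIs. Among all genes 6.02% were higher and 3.93% lower. The largest log2 ratios belonged to Actc1 at 7.33 (6.86 to 7.85), Tnni1 at 7.19 (5.97 to 8.82) and Myh3 at 7.11 (5.56 to 9.39), all with few UMIs in the Myod1 gate. Red blood cell transcripts stood at 1907 UPM in the Myog gate and 54.8 UPM in the Acta1 gate, and with the 3 Myog-gate cells over 1% haemoglobin left out the count of higher members was again 30, against 5.99% of all genes.

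From the Myog to the Acta1 gate, 38 of the 41 members other than Acta1 were higher by 2-fold or more and none was lower, against 11.4% and 13.9% of all genes. Tpm3 lay between, and Myh2 and Nebl had 5 and 3 UMIs in the gates together. The median log2 ratio was 3.87 for the members other than Acta1 that had a ratio, Myh2 included, and -0.16 for all genes with 20 UMIs or more. In the Acta1 gate 12 members stood among the 50 most abundant genes and 14 among the 100 most abundant, against 0 and 1 in the Myog gate. Both Acta1-gate counts include Acta1 itself, at rank 8, which the gate selects. With the Acta1 gate limited to cells of 5 to below 50 Acta1 UMIs per 10000, a limit set after the values were seen, 36 were higher, against 10.5% of all genes.

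Actins form the thin filament. Actc1, the cardiac actin that embryonic skeletal muscle also uses, led the family in the last 2 gates, with 30.6 UPM in the Pax7 gate, 13.0 in the Myod1 gate, 2087 in the Myog gate and 8806 (8707 to 8907) in the Acta1 gate, where it ranked 3 among all genes by UMIs. In single cells of that gate it ran from 0 to 255 UMIs per 10000 with a median of 93.4. Acta1, the skeletal actin, stood at 4.23, 3.70, 32.2 and 6576 UPM (6490 to 6663) in the same order, the last value being set in part by the gate. Acta2, the smooth muscle actin, was present from the start and led in the first 2 gates, at 159 UPM in the Pax7 gate, 142 in the Myod1 gate, 1142 in the Myog gate and 4926 in the Acta1 gate.

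Of the actin UMIs of the Acta1 gate 43.4% (43.0 to 43.7) were Actc1, 32.4% Acta1 and 24.3% Acta2, and divided by transcript length the shares were 46.2%, 35.1% and 18.7%. Actc1 led in 140 of the 217 cells, Acta1 in 68 and Acta2 in 5, and 4 were tied. In the Myog gate Acta1 made up only 0.987% of actin UMIs, against 64.0% for Actc1. Among the smooth muscle markers Tagln reached 1101 UPM in the Acta1 gate, while Cnn1 and Myh11 were at 2.94 and 0.589 UPM. Tagln stood at 18.1 UPM in the Pax7 gate, 15.9 in the Myod1 gate and 27.7 in the Myog gate, where Acta2 was already at 1142 UPM. The part of smooth muscle cells in the Acta2 level was not tested.

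**Figure D2:**
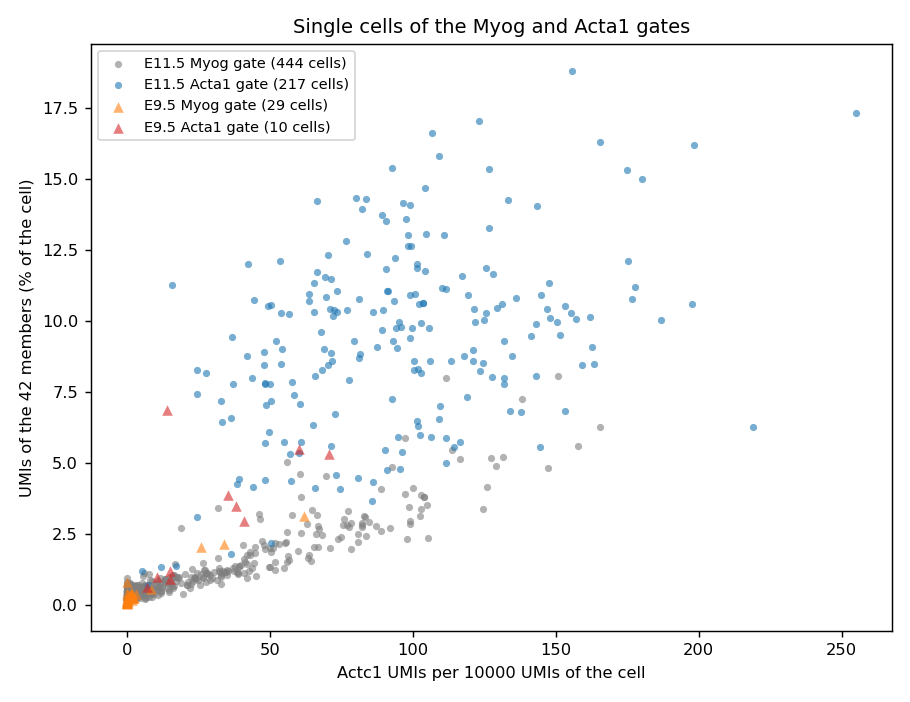
Each point is 1 cell of the Myog or Acta1 gate at either stage, with Actc1 UMIs per 10000 UMIs on the horizontal axis and the members' share of all UMIs (%) on the vertical axis. From about 50 Actc1 UMIs per 10000 most E11.5 Acta1-gate cells lie above the Myog-gate cells, with overlap at low values, and the 10 E9.5 Acta1-gate cells lie between 0.633% and 6.86%.

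Myosin light chains sit on the neck of the myosin head. Mylpf, the fast skeletal regulatory light chain, was the most abundant transcript of all in the E11.5 Acta1 gate, at 16210 UPM (16080 to 16350) and rank 1, after 14.7 UPM in the Pax7 gate, 14.8 in the Myod1 gate and 644 in the Myog gate. In neural cells it stood at 7.79 UPM (3.89 to 13.9), so the values of the earliest gates lay within 2-fold of that of cells that should lack it. Single cells of the Acta1 gate ran from 0 to 467 Mylpf UMIs per 10000, with a median of 165. Myl2, the slow and ventricular regulatory chain, had 71 UMIs against 55074 for Mylpf, or 0.129% of the pair.

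The essential light chains were shared between a fast and an embryonic form. Myl1, the fast skeletal chain, went from 246 UPM in the Myog gate to 5610 in the Acta1 gate, and Myl4, the embryonic and atrial chain, from 93.5 to 4158. Myl1 took 56.9% (56.4 to 57.4) of essential light chain UMIs in the Acta1 gate and Myl4 42.2%. In the Myog gate these shares were 71.8% and 27.3%, so Myl4 had the larger share in the cells with more Acta1. Myl1 led in 164 cells of the Acta1 gate and Myl4 in 39. Myl3, the slow and ventricular chain, rested on 3 UMIs in the Myog gate and 252 in the Acta1 gate (log2 ratio 7.75, 6.19 to 10.0), where it made up 0.752%, and Myl6b made up 0.182%.

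Myosin heavy chains carry the motor. Myh3, the embryonic chain, stood at 1.24, 1.11, 154 and 2430 UPM (2378 to 2483) over the 4 gates. Myh7, the slow and beta-cardiac chain, stood at 2.30 UPM in the Myog gate and 303 in the Acta1 gate, and Myh8, the perinatal chain, at 16.8 and 254. Single cells of the Acta1 gate ran from 0 to 77.4 Myh3 UMIs per 10000 with a median of 20.2, and from 0 to 29.6 for Myh7 with a median of 1.09. Myh6, the alpha-cardiac chain, reached 15.3 UPM on 52 UMIs, and Myh2, an adult fast chain, 1.18 UPM on 4 UMIs.

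Among the 5 heavy chains on the list, 80.9% of the UMIs of the Acta1 gate (80.1 to 81.7) were Myh3, 10.1% Myh7, 8.47% Myh8, 0.510% Myh6 and 0.0392% Myh2. Chains outside the list, named after their values were seen, had 142 UMIs (Myh4), 105 (Myh7b) and 66 (Myh1) there, more than Myh6 or Myh2. Division by transcript length left Myh3 at 81.3%. The Myog gate had a like share of Myh3, 88.5%, and less Myh7, 1.33%. In the Pax7 gate 25 of the 31 UMIs of these chains were Myh8, or 80.7% (62.5 to 92.6), and the chain stood at 6.21 UPM there and 8.15 UPM in the Myod1 gate, ahead of Myh3 in both. Neural cells had no UMI of Myh8 in 1411688, which puts the upper bound at 2.61 UPM. Heavy chain genes are close copies of one another, and how reads shared by such copies were counted is not given in the sources used here, which leaves the small values of Myh6 and Myh2 uncertain.

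Myh3 and Myh7 were found in the same cells. Among the 217 cells of the Acta1 gate 131 (60.4%) had UMIs of both, 50 of Myh3 alone, 3 of Myh7 alone and 33 of neither. After thinning each of the 156 deeper cells to 5000 UMIs, 88 had both, 65 Myh3 alone, none Myh7 alone and 3 neither. With Scrublet doublet calls removed, 118 of 196 cells had both. All 129 cells with a Myh8 UMI also had one of Myh3. In neural cells Myh7 had a UMI in 0.813% of 123 cells and Myh3 and Myh8 in 0, at a median depth of 9897 UMIs against 15724 in the Acta1 gate.

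Troponin C binds the calcium of the switch. Tnnc1, the slow and cardiac form, went from 131.7 UPM in the Myog gate to 4796 in the Acta1 gate, and Tnnc2, the fast form, from 115.1 to 4365. Their shares in the Acta1 gate were 52.4% (51.8 to 52.9) and 47.7%. In single cells Tnnc1 ran from 0 to 142 UMIs per 10000 (median 48.4) and Tnnc2 from 0 to 149 (median 44.4). Both were detected in 213 of the 217 cells, with Tnnc1 ahead in 121 and Tnnc2 in 88, so neither form marked a separate set of cells.

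Troponin I holds the thin filament off, and here 1 form dominated. Tnni1, the slow form, stood at 271 UPM in the Myog gate and 3461 in the Acta1 gate, and Tnni2, the fast form, at 38.2 and 146. Tnni1 made up 96.0% (95.6 to 96.3) of troponin I UMIs in the Acta1 gate, 87.6% in the Myog gate and 44.9% (32.9 to 57.4) in the Pax7 gate, where the pair had few UMIs. Tnni2 had a UMI in 111 of the 217 cells, each of which also had Tnni1.

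Troponin T ties the complex to tropomyosin. Tnnt1, the slow form, behaved unlike the other troponins, as it was already at 677 UPM in the Pax7 gate and 717 in the Myod1 gate, then 1354 in the Myog gate and 4353 in the Acta1 gate. It was lower in other cells of the library, at 78.4 UPM in those outside every named class and 13.5 UPM in neural cells. Tnnt2, the cardiac form, stood at 3.98, 4.44, 209 and 1483 UPM, and Tnnt3, the fast form, at 2.98, 3.70, 17.4 and 412. The Tnnt1 share was 99.0% in the Pax7 gate, 85.7% in the Myog gate and 69.7% (69.1 to 70.3) in the Acta1 gate, where Tnnt2 made up 23.7% and Tnnt3 6.59%.

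Tropomyosins lie along the actin groove. Tpm1 had 1313 UPM in the Pax7 gate, 1138 in the Myod1 gate, 1355 in the Myog gate and 3165 in the Acta1 gate, where its log2 ratio over the Myog gate was 1.22. Restricted to Acta1-gate cells below 50 Acta1 UMIs per 10000 that ratio was 0.95, under 2-fold. Tpm2 went from 310 to 272, 898 and 5597 UPM and passed Tpm1 in the Acta1 gate, with 63.1% (62.5 to 63.6) of tropomyosin UMIs against 35.7%. Tpm3, whose slow-muscle transcript shares a gene with a form made in many cells, was lower in the later gates, from 237 UPM in the Pax7 gate to 221, 194 and 113, while neural cells had 256. The counts are per gene, so striated and non-muscle transcripts of Tpm1 and Tpm3 cannot be told apart.

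**Figure D3:**
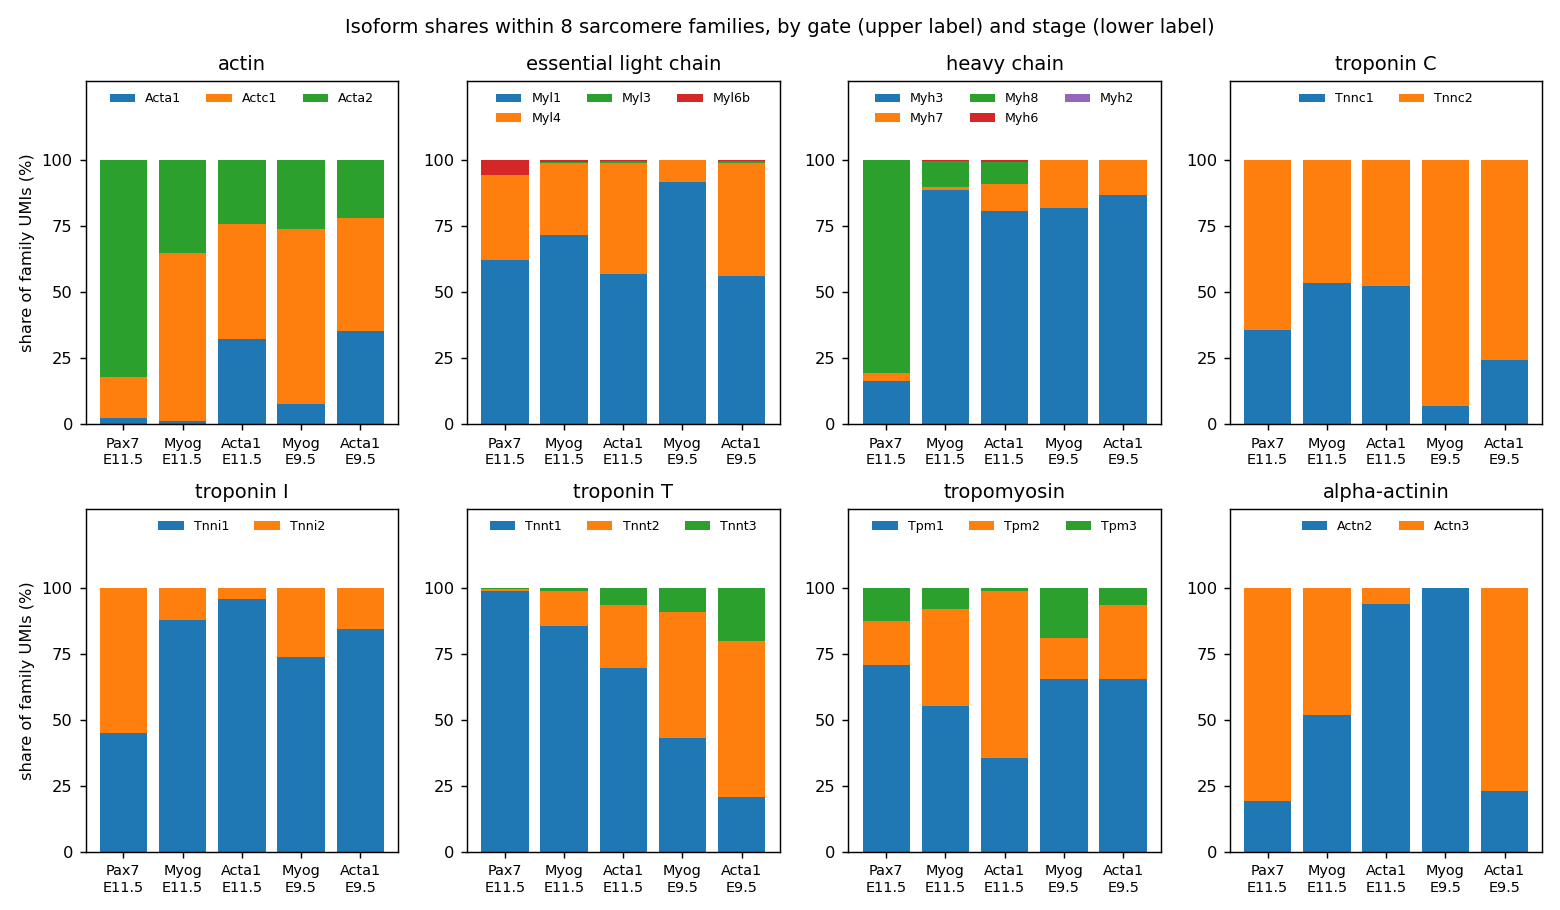
Share of each isoform (% of the UMIs of its family, stacked to 100) in 8 families, over the Pax7, Myog and Acta1 gates of E11.5 and the Myog and Acta1 gates of E9.5. Tnnc1 has 52.4% of troponin C in the E11.5 Acta1 gate and 24.1% at E9.5, and Tnnt1 has 69.7% and 20.9% of troponin T. Bars of the heavy chain and alpha-actinin families at E9.5 rest on few UMIs.

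For 8 families the fast form was taken as Mylpf, Myl1, Myh2, Tnnc2, Tnni2, Tnnt3 and Actn3, and for the actins as the skeletal form Acta1. The form so named led only the light chains (Mylpf and Myl1) in the E11.5 Acta1 gate. The other 6 families were led by Actc1, Myh3, Tnnc1, Tnni1, Tnnt1 and Actn2, of which Actn2 belongs to all skeletal fibres as well as heart. In the Myog gate the count was also 6, with Actn2 and Actn3 apart by less than their counting error. In the E9.5 Acta1 gate it was 4, as Tnnc2 and Actn3 led there.

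Titin and nebulin are the giant rulers of the filaments. Ttn stood at 50.9 UPM in the Pax7 gate, 30.4 in the Myod1 gate, 589 in the Myog gate and 4289 in the Acta1 gate, and Neb at 16.9, 5.18, 136 and 1309. In neural cells both were at 0.708 UPM, on 1 UMI each. Nebl, the cardiac relative of nebulin, had 1 UMI in the Acta1 gate, against 4446 of Neb.

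Z-disc and cap proteins anchor the filaments at either end. Tcap, the titin cap, had the largest ratio over the Myog gate of the members other than Acta1, from 0.920 UPM on 8 UMIs to 413 UPM (log2 8.81, 7.83 to 10.0). Actn2, the alpha-actinin of heart and of all skeletal fibres, went from 20.1 to 778 UPM, while Actn3, the fast-fibre form, went from 18.7 to 50.6. Actn2 thus held 51.8% (46.3 to 57.2) of the pair in the Myog gate and 93.9% (92.9 to 94.8) in the Acta1 gate. Myoz2, a calcineurin-binding Z-disc protein of slow muscle and heart, went from 14.3 to 405 UPM, and Ldb3, a PDZ-LIM protein that binds alpha-actinin, from 1.61 to 119. Xirp1, an actin-binding repeat protein, reached 14.4 UPM on 49 UMIs. Des, the muscle intermediate filament, was at 73.8 UPM in the Pax7 gate, 69.2 in the Myod1 gate, 233 in the Myog gate and 1109 in the Acta1 gate.

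At the M-band, which crosslinks the thick filaments, Myom1 stood at 94.8 UPM and Myom2 at 20.02 UPM in the Acta1 gate, with 82.6% (78.4 to 86.2) of the pair for Myom1. Among the myosin-binding proteins Mybph went from 44.8 to 742 UPM between the Myog and Acta1 gates, and Mybpc1, the slow form of myosin-binding protein C, from 40.8 to 460. Mybpc1 was also found in the Pax7 gate, at 15.4 UPM, where Mybph had 1 UMI.

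Factors that cap or fold the filaments were present in the Myog gate. Unc45b, a myosin chaperone, had no UMI in the Myod1 gate and 262 in the Myog gate. Against a floor of 3 counts it was 27.1-fold higher in the Myog gate (log2 4.76), while the counting interval of its log2 ratio began at 4.45. Unc45b reached 317 UPM in the Acta1 gate. Smyd1, its partner in thick filament assembly, went from 27.5 to 193 UPM, Lmod3, a leiomodin that nucleates thin filaments, from 25.2 to 354, and Tmod1, the pointed-end cap, from 19.9 to 178.

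The members did not first reach 50% of their highest level at the same Acta1 level. The 661 E11.5 cells of the Myog and Acta1 gates were split by Acta1 UMIs per 10000 into 6 bins, of 356 cells at 0, 61 cells above 0 and below 2, 27 cells from 2 to below 5, 51 cells from 5 to below 20, 52 cells from 20 to below 50, and 114 cells at 50 or more. The members took 0.728%, 1.41%, 3.69%, 5.56%, 7.86% and 10.8% of UMIs in them. Of 39 members counted (Acta1, Myh2 and Nebl were left out), 8 first reached 50% of their highest level in bin 3, 10 in bin 4 and 19 in bin 5. Tpm3 was highest in bin 1, and Myl2 reached 50% only in bin 6. The share of all genes in each of these groups was not computed. The counts therefore describe the members and do not set them apart from other genes.

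The early group held Actc1, Acta2, Tnnt1, Tnnt2, Tnni2, Tpm1, Actn3 and Unc45b. Actc1 went from 1474 UPM in bin 1 to 3171, 6938 and 9028 in bin 4 and then 8519 and 8830, so its level was near its top before Acta1 passed 20 per 10000. Tnni2 was at 186 and 189 UPM in bins 3 and 4 and at 113 and 140 in bins 5 and 6. In the middle group, Myh3 went from 66.4 UPM in bin 1 to 278, 925, 1700, 2534 and 2738, and Ttn from 402 to 5138 in bin 5 and 4158 in bin 6.

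The late group held 5 light chain, 3 heavy chain and 3 troponin genes, with Mylpf, Myl1, Myl3, Myl4, Myl6b, Tnnc1, Tnnc2, Tnnt3, Myh6, Myh7, Myh8, Actn2, Ldb3, Tcap, Myoz2, Xirp1, Myom1, Myom2 and Mybpc1. Mylpf went from 232 UPM in bin 1 to 4876 in bin 3 and 21200 in bin 6, and Myh7 from 30.1 in bin 3 to 75.2, 308 and 412. Tcap had 0 UMIs in bin 1, 11.3 UPM in bin 3 and 577 in bin 6. Within actin the Actc1 share was 62.1% to 66.7% in bins 1 to 4, then 52.3% and 34.9%, while Acta1, on which the bins were cut, made up 41.7% in bin 6. The Tpm2 share of tropomyosin was 32.7% in bin 1, 51.7% in bin 3 and 63.4% in bin 6. Some places rest within counting error of the next bin, such as Tnnt1, whose 2642 UPM in bin 3 was just over 50% of its highest level of 5272, and Myl6b and Myh6, with 9 and 8 UMIs in bin 4 and 10 and 9 in bin 5. Median UMIs per cell ran from 15395 to 22423 over the bins.

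**Figure D4:**
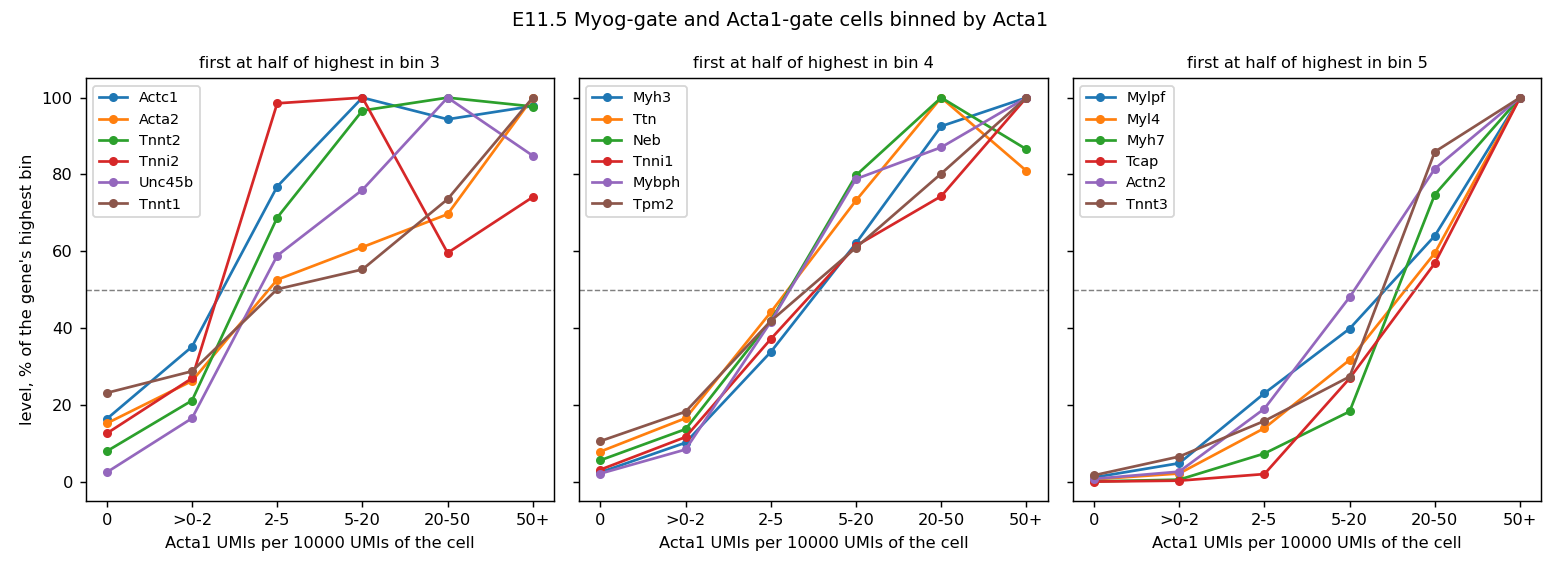
Level of 18 members in the 6 bins of Acta1 UMIs per 10000 (horizontal axis), each as % of its own highest bin (vertical axis), for E11.5 cells of the Myog and Acta1 gates. The left panel shows genes that pass the dashed 50% line in bin 3, the middle panel in bin 4 and the right panel in bin 5.

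A list of 52 other genes, without the members, was followed as well. It held sarcomere genes together with related genes, such as the smooth muscle genes Myh11, Actg2 and Myl9 and the chaperone Hsp90aa1. From the Myog to the Acta1 gate 32 of the 52 were higher by 2-fold, 2 lower and 11 had under 20 UMIs, against 11.4% and 13.9% of all genes. From the Myod1 to the Myog gate 16 were higher, 1 lower and 18 had under 20 UMIs, against 6.02% and 3.93%. At 500 UPM or more in the E11.5 Acta1 gate stood Hspb1, a small heat shock protein, at 1212 UPM, Hsp90aa1, the chaperone that works with Unc45b, at 885, Cfl2, the muscle cofilin, at 746, Cryab, a chaperone of desmin and titin, at 694, Nexn, a Z-disc actin-binding protein, at 534, and Myl9, a smooth muscle light chain, at 519. The 2 lower genes were Hsp90aa1, with 1888 UPM in the Myog gate, and Tnni3, the cardiac troponin I, with 31 UMIs in the Myog gate and 3 in the Acta1 gate. Tnni3 is named for completing that count, after its values were seen. Cryab stood at 43.6 UPM in the Myog gate, 15.9-fold lower than in the Acta1 gate.

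Cells of the Acta1 gate were also compared between stages. At E11.5, 29 of the 42 members were higher by 2-fold or more than at E9.5, 1 was lower, 10 lay between and 2 (Myh2 and Nebl) had under 20 UMIs, against 12.7% higher and 14.3% lower among all genes. Acta1, on which both gates were cut, is counted among the 29 (log2 1.26). Xirp1 and Myl6b are counted there on 1 E9.5 UMI each, with log2 intervals that cover 0 (-1.25 to 6.63 and -0.92 to 6.94). In the Myog gate 22 were higher, none lower, 11 lay between and 9 had under 20 UMIs, against 13.3% and 5.97%. The Myog gates were not matched for Myog level. The E9.5 Myog gate stood at 490 UPM of Myog and 8.80 of Myod1, the E11.5 Myog gate at 1890 and 636.5. Among its 29 cells, the E9.5 Myog gate had a median member share of 0.257% and a highest of 3.14%. In 28 of these 29 cells no UMI of the 5 listed heavy chains was found. The Acta1-gate cells had a median of 53.2 Acta1 UMIs per 10000 at E11.5 (5.31 to 310) and 24.9 at E9.5 (7.04 to 70.0). Compared only within 5 to below 50, with 103 and 7 cells, 27 members were higher and 1 lower, against 14.7% and 13.0% of all genes. With the E9.5 cell of 40864 UMIs left out, a choice made after the values were seen, 29 were higher and 1 lower, against 12.1% and 16.6%. Tnnc2 and Tnnt3 were then among the higher members, and Myl6b and Xirp1 were not. Of the 23 members with 20 UMIs or more in the 10 E9.5 cells, 9 changed in level by over 1.5 times without that cell. Stage, library and pool of embryos cannot be told apart.

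Troponin T and C isoforms differed in share between the stages beyond counting error. Tnnt1 stood at 370 UPM in the E9.5 Acta1 gate and 4353 at E11.5 (log2 3.56, 3.20 to 3.94), and at 82.2 and 1354 UPM in the Myog gates (4.04, 3.67 to 4.45). In the Pax7 gates it stood at 3.07 and 677 UPM. Tnnt2 stood at 1044 and 1483 UPM in the Acta1 gates (0.51, 0.29 to 0.73). Tnnt3 stood at 358 and 412 UPM (0.20, -0.17 to 0.60), but 38 of its 61 E9.5 UMIs came from the cell of 40864 UMIs, and without it the E9.5 level was 177 UPM (log2 1.22, 0.62 to 1.88). Without that cell the ratios were 3.62 for Tnnt1 and 0.82 for Tnnt2. The E9.5 cells of the Acta1 gate therefore had Tnnt2 as the leading troponin T, with 58.9% (53.2 to 64.5), and Tnnt1 at 20.9% (16.4 to 25.9). Tnnt2 led in 7 of these 10 E9.5 cells, and Tnnt1 led in 201 of the 217 E11.5 cells. In the E9.5 Myog gate Tnnt2 had 47.7% (38.9 to 56.6) and Tnnt1 43.1% (34.4 to 52.05), within counting error of each other. Tnnt1 led in 12 of those 29 cells and Tnnt2 in 4.

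Tnnc1 stood at 704 UPM in E9.5 cells and 4796 in E11.5 cells (log2 2.77, 2.51 to 3.04) and Tnnc2 at 2217 and 4365 (0.98, 0.83 to 1.13). Without the E9.5 cell of 40864 UMIs these log2 ratios were 3.50 (3.12 to 3.91) and 1.55 (1.34 to 1.76). Tnnc2 was ahead of Tnnc1 in all 9 E9.5 cells with a troponin C UMI, with 42 against 11, 184 against 65, 24 against 6, 28 against 7, 53 against 26, 29 against 2, 6 against 2, 7 against 0 and 5 against 1 UMIs. The Tnnc1 share was 24.1% (20.4 to 28.1) in the E9.5 cells and 52.4% in the E11.5 cells. Without that cell it was 22.1% (17.1 to 27.8). Within 5 to below 50 Acta1 UMIs per 10000 the Tnnc1 shares were 17.1% (11.7 to 23.7) and 52.0%, and the Tnnt1 shares 27.7% (19.6 to 36.9) and 65.5%. In the Myog gates Tnnc1 had 6.90% (3.02 to 13.1) at E9.5 and 53.4% at E11.5.

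Tpm1 stood at 3155 and 3165 UPM in the Acta1 gates (log2 0.00, -0.12 to 0.13), and without the cell of 40864 UMIs the E9.5 level was 2214 UPM (log2 0.52, 0.35 to 0.69), while Tpm2 stood at 1366 and 5597 UPM (2.03, 1.85 to 2.23). Tpm1 led tropomyosin in 8 of 10 cells at E9.5 and Tpm2 in 188 of 217 at E11.5. Tpm3 was the 1 lower member, with 311 UPM at E9.5 and 113 at E11.5 (-1.46, -1.88 to -1.02). The actin shares, in gates cut on Acta1, were 42.9% and 43.4% for Actc1, 35.3% and 32.4% for Acta1, and 21.8% and 24.3% for Acta2. Within 5 to below 50 Acta1 UMIs per 10000 Actc1 made up 41.0% (36.6 to 45.5) of actin UMIs in the E9.5 cells and 58.5% (57.9 to 59.1) in the E11.5 cells. In the Myog gates the Acta1 share was 7.66% and 0.987%.

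Myh8 had no UMI in the E9.5 Acta1 gate and 864 at E11.5, 14.5-fold higher against a floor of 3 counts (log2 3.85). Myoz2 likewise had 0 and 1376 UMIs, 23.0-fold higher against that floor (log2 4.52). The counting intervals of these log2 ratios began at 3.55 and 4.23. Actn2 rested on 3 UMIs at E9.5 and stood at 778 UPM at E11.5 (log2 5.47, 3.92 to 7.75), whereas Actn3 was at 58.7 and 50.6 UPM (-0.21, -1.13 to 0.87). Mybpc1 went from 23.5 to 460 UPM (4.29, 2.93 to 6.17), Myh3 from 381 to 2430 UPM (2.67, 2.32 to 3.05), Mylpf from 2833 to 16210 UPM (2.52, 2.39 to 2.65) and Des from 915 to 1109 UPM (0.28, 0.05 to 0.52). The E9.5 cell of 40864 UMIs held 44 of the 65 Myh3 and 295 of the 483 Mylpf UMIs, and without it the E9.5 levels were 162 and 1450 UPM, with log2 ratios of 3.91 (3.29 to 4.60) and 3.48 (3.28 to 3.70).

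**Figure D5:**
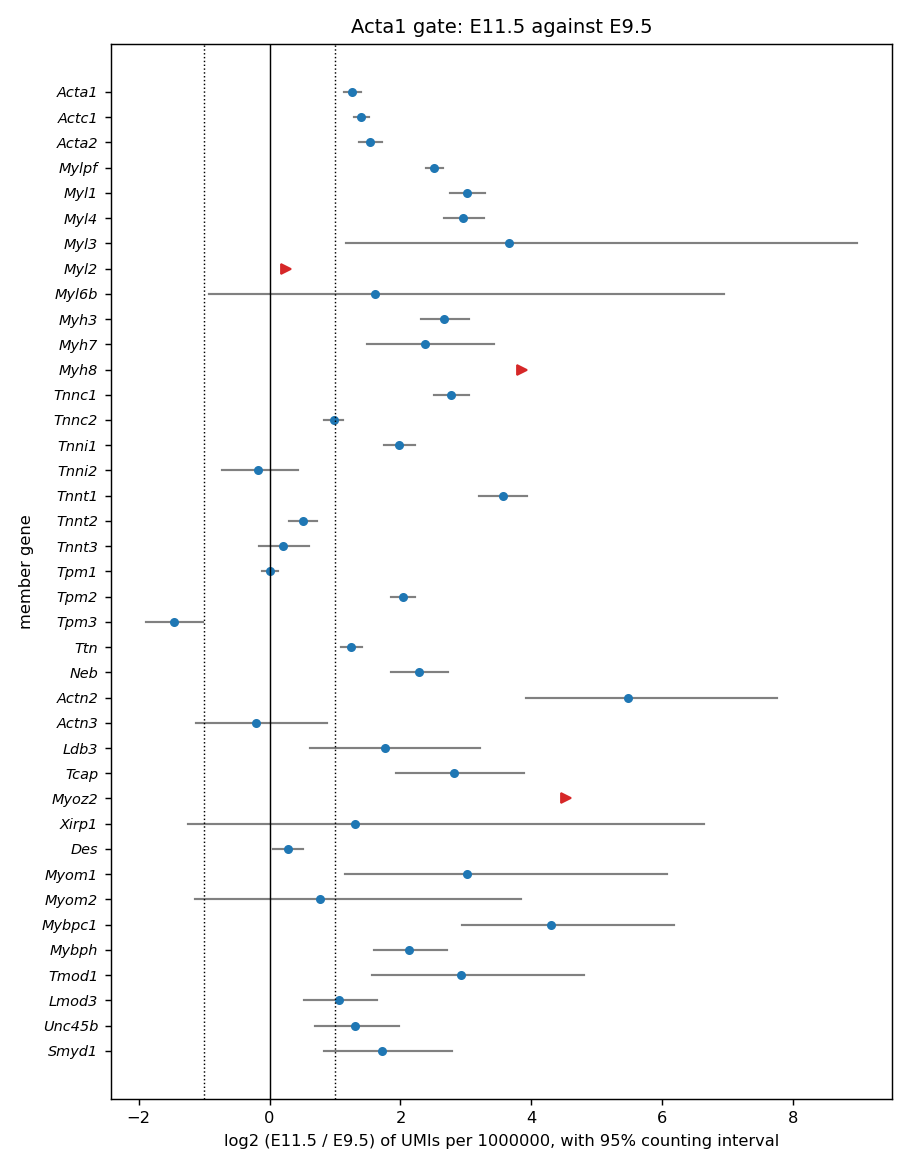
Log2 ratio of the E11.5 over the E9.5 level in the Acta1 gate for 39 members, over all 217 and 10 cells, with bars for the 95% counting interval, a solid line at 0 and dotted lines at 2-fold. Red arrowheads mark the ratio against a floor of 3 counts for members with 0 UMIs at E9.5. Myh2 and Nebl are not drawn because they had under 20 UMIs. Myh6, with 52 UMIs at E11.5 and 0 at E9.5, is not drawn because its log2 ratio against that floor was set to 0. Tpm1, Tnni2, Tnnt3, Des and Actn3 lie near 0, Tpm3 lies below, and Tnnt1, Actn2 and Mybpc1 lie farthest to the right among genes with an interval above 2.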

How the data were processed

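The authors sequenced 1 droplet library per stage and deposited UMI counts per gene and cell, made with Cell Ranger 3.0.1 against the mm10 build per the labels. The deposited counts are raw. Analyses used Python 3.11.15 with numpy 2.4.6, scipy 1.17.1 and scanpy 1.11.5. Counts were summed over the cells of each gate and divided by all UMIs of those cells. Exact Poisson intervals were used for levels, Clopper-Pearson intervals for shares and exact conditional intervals for ratios, at 95%. Genes with 20 UMIs or more in a pair of gates were counted as past 2-fold, with no test, since each stage is 1 library. The interval code was tested on simulated data. Doublets were kept. Scrublet scores of 0.2 or more, a limit set after the automatic one marked 1 barcode at E11.5, gave 491 barcodes at E9.5 (4.85%) and 367 at E11.5 (3.61%), which an alternative removed. At E11.5 these included 17 of 232 Pax7-gate cells, 11 of 151 Myod1-gate cells, 30 of 444 Myog-gate cells and 21 of 217 Acta1-gate cells. Transcript lengths came from GENCODE M21 and promoters from RefSeq. Members, gates and lists were chosen with earlier results of these data known. Members with 20 UMIs in a comparison were to be given by value and members below that as UMIs. The 52 genes of the other list were to be given by value only at 500 UPM or more in the E11.5 Acta1 gate.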

Additional observations from a re-analysis of the deposited data

Results flagged for a closer look

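Barcodes with 6500 genes or more were outside the comparisons. At E11.5, 10 of 126 such barcodes passed the Acta1 gate (7.94%), against 2.26% of the kept cells, and 5 of the 10 had a Scrublet score of 0.2 or more. The 42 members took 6.80% of their UMIs, against 8.81% in the Acta1 gate. At E9.5 none of 143 such barcodes passed it.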

How the results depend on the processing

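The member share of UMIs, 8.81% in the E11.5 Acta1 gate and 1.02% in the Myog gate, moved with the cut of the Acta1 gate (8.001% and 0.8479% at 2 per 10000, 9.267% and 1.172% at 10), with Scrublet calls removed (9.544% and 1.049%), with no cap on genes (8.564% and 0.963%), as a mean over cells (9.203% and 1.127%), thinned (8.676% and 1.115%) and with the neural level subtracted (8.782% and 0.9811%). With 1000 genes or more per cell the Acta1 gate gave 8.777%, and from 5 to below 50 Acta1 UMIs, added after the data were seen, 6.676%. The Myog gate gave 0.739% from 1 UMI of Myog and 1.123% from 3. Of the counts past 2-fold, the lower members between stages in the Myog gate, 0 above, were 1 with the Acta1 gate at 2, with no cap, with the neural level subtracted or at 1.5-fold (5.92%, 4.95%, 25.1% and 14.5% of all genes in that order), and 2 as a mean over cells (6.93%). Those in the Acta1 gate, 1 above, were 3 as a mean over cells (14.3%), 2 thinned (17.8%) and 0 at 4-fold (1.98%). The higher members between stages were 13 in the Myog gate and 18 in the Acta1 gate at 4-fold, against 4.09% and 3.21% of all genes. At 1.5-fold 1 member was lower in the Acta1 than the Myog gate (27.3%). Between the Myod1 and Pax7 gates, 1 member was higher and 2 lower from 1 UMI (1.58% and 1.17%), and the 4 lower were 2 thinned (3.25%), 1 at 4-fold (0.287%) and 0 with the whole interval past 2-fold (0.105%). The cause of these moves was not tested. The other 219 values of this kind stayed within their error or within 1.5 times. Of the isoform shares 95 left their counting interval and 464 did not, and the Actc1 share of actin in the E11.5 Acta1 gate went from 43.4% to 58.5% below 50 Acta1 UMIs per 10000. Over all planned settings the higher members from the Myog to the Acta1 gate numbered 34 to 39, and no lower member appeared from the Myod1 to the Myog gate. These settings include other fold limits, at which the share of all genes differs too. In the Acta1 over the Myog gate 27.3% of all genes were lower at 1.5-fold and 13.9% at 2-fold. The 34 and 39 are therefore not to be read against 1 common share. The log2 ratios of single members that were followed over the settings kept their direction. In 13 settings of 6 members (Mybpc1, Myh7, Myh8, Myl6b, Myom1 and Tpm1) these ratios were under 2-fold. Xirp1 between stages in the Acta1 gate changes direction as a mean over cells. Its 1 UMI at E9.5 gave that cell 14.0 UMIs per 10000, against at most 1.155 in any E11.5 cell. The bins along Acta1 were not run without Scrublet calls. Depth limits Myh2 and Nebl, with at most 5 UMIs in the gates compared at E11.5, and the E9.5 Acta1 gate, which rests on 10 cells. No paired analysis was possible because each stage is 1 library and no test was run.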
